A study of Homo sapiens with 12 samples.

Results

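The integrated stress response and the supply of amino acids were followed in 34 genes out of the 40649 counted. The genes were chosen by symbol, and each matched 1 Ensembl identifier in the count tables. They comprise 8 transcriptional regulators around ATF4, 6 genes of feedback and growth control, 6 enzymes of amino acid synthesis, 3 enzymes of one-carbon metabolism, 6 amino acid transporters and 5 genes of tRNA charging and export. All 34 passed the filter on low counts and were tested among 19268 genes.

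Polyadenylated RNA was counted in 12 libraries of HK-2, a cell line established from human proximal tubule epithelium, with 4 libraries in each of 3 groups. The group shNC carried a control short hairpin RNA and received no treatment. The group shNC_H2O2 carried the same control hairpin and received hydrogen peroxide (H2O2) at 150 µM for 48 h. The group shYAP1_H2O2 carried a hairpin against YAP1, the co-activator of the Hippo pathway, and received the same H2O2, so every library carried a hairpin. The series asks how persistent oxidant stress, and YAP1 knockdown under it, act on tubular cells and their senescence. Untreated cells with the YAP1 hairpin were not analysed here, so shYAP1_H2O2 differs from shNC in both hairpin and oxidant, whose parts cannot be told apart. The labels tie no library to a culture of its own and name neither the number of hairpins nor of clones. P-values therefore reflect only how far these samples spread, which can be technical variation.

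A family of kinases senses amino acid shortage, misfolded protein in the endoplasmic reticulum, haem shortage or viral RNA, and phosphorylates the translation initiation factor eIF2. This slows translation in general while the mRNA of ATF4 is translated more, so ATF4 protein is set largely above the level of its mRNA. ATF4 pairs with factors of the C/EBP family on composite sites in its target genes, which supply amino acids, charge tRNA and, through CHOP (DDIT3), TRIB3 and PPP1R15A, feed back on the response. Proximal tubule cells reabsorb filtered amino acids and engage this pathway under oxidant and endoplasmic reticulum stress.

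The composite site has the core TGATGNAA, in which ATF4 contacts one side and its C/EBP partner the other. It was the only motif searched, on both strands, in the 300 bases from 250 before to 50 after each start site listed by RefSeq on GRCh38.p14. Of the 34 genes 29 had such a window, and 11 of these (37.9%) held the core, against 4.46% of all 27305 genes with a window. Per window the shares were 22.4% of 49 and 3.62% of 35116. The genes were chosen as part of the ATF4 pathway, so this share describes the choice. A match of letters is a description and not a site shown to be bound. The 8 stretches that lie wholly before a start site listed by RefSeq are shown because they place the core at genes whose values follow. Only those of ATF3 and AARS1 lie outside the bounds of their gene in GENCODE release 29. The others lie within these bounds, so the listed start need not be the outermost one. Each reads 5′ to 3′ on the strand of its gene, with the core in capitals, as TGATGNAA where it lies on that strand and as its reverse complement where it lies on the other.
ATF3 (chr1:212565196-212565243, + strand): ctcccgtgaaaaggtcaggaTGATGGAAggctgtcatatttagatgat
CEBPG (chr19:33374051-33374098, + strand): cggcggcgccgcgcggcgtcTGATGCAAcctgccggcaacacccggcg
JDP2 (chr14:75427986-75428021, + strand): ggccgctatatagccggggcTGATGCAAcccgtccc
CHAC1 (chr15:40953242-40953289, + strand): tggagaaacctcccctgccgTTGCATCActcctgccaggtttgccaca
ASNS (chr7:97872449-97872496, - strand): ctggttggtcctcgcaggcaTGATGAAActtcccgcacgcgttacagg
SLC1A5 (chr19:46784884-46784931, - strand): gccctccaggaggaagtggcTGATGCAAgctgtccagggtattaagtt
AARS1 (chr16:70289666-70289713, - strand): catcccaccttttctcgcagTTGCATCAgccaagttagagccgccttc
GARS1 (chr7:30594825-30594872, + strand): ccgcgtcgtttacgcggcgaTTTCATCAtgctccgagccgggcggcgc
The core TGATGCAA appeared in 5 of these stretches, counting either strand, TGATGAAA in 2 and TGATGGAA in 1. SLC1A4, SLC3A2 and SLC7A1 also held the core, at 7 bases before, 38 after and 8 after a listed start site. In shNC_H2O2 against shNC 5 of the 11 genes with the core were called higher and 1 lower, 9 and 4 of the 18 with windows that lack it, and 3 and 0 of the 5 with no window, beside 23.9% and 22.6% of all tested genes. In shYAP1_H2O2 against shNC_H2O2 these counts were 4 and 2, 9 and 2, and 1 and 0, beside 22% and 21%. Against shNC 5 of 11, 13 of 18 and 4 of 5 were higher, beside 17.4%. The groups with and without the core were not tested against each other.

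Levels are in CPM, counts scaled to library size with TMM factors, given as mean ± SD of 4 libraries, and differences are log2 fold changes ± SE from edgeR. A gene was called higher or lower where its p, adjusted by Benjamini-Hochberg over all tested genes, was under 0.05. Total counts per library ranged from 30789997 to 46582873, and a floor of 3 counts equals 0.0638 to 0.0951 CPM on that scale. Mitochondrially encoded genes took 13.9% of the counts in shNC replicate 4 and 11.3% in shYAP1_H2O2 replicate 3, against 4.54% to 5.64% in the other 10 libraries. Those 2 libraries stood low in the stress response genes, with shNC replicate 4 lowest of its group for 23 of the 34 and shYAP1_H2O2 replicate 3 for 22. Their median log2 difference from the other 3 libraries of their group was -0.24 and -0.16 over the 34 genes, and 0.00 in both over all tested genes. Counts without both are given with each comparison, and their part in single values was not tested.

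YAP1, the target of the hairpin, was at 124 to 140.5 CPM in shNC, 151 to 163.5 in shNC_H2O2 and 111 to 136 in libraries with the label shYAP1_H2O2. There it was lower than in shNC_H2O2 (-0.29 ± 0.07, edgeR adjusted p = 0.00346) and did not pass against shNC (-0.05 ± 0.07, adjusted p = 0.636). Directions given for the knockdown refer to libraries so labelled. All 8 renal epithelial markers were above 1 CPM in every library, while of 8 matched proximal tubule markers CUBN, LRP2, AQP1 and ANPEP were below 1 CPM throughout. The summed proximal tubule markers were 279.5 to 336 CPM in shNC, 161 to 169 in shNC_H2O2 and 284 to 324.5 in shYAP1_H2O2, mostly DPP4. Markers of other nephron segments, endothelium and leukocytes were all below 1 CPM, and UMOD had no count. The 5 fibroblast markers summed to 110.0 to 113 CPM in shNC, 236 to 255 in shNC_H2O2 and 143 to 172 in shYAP1_H2O2, mostly LUM, with 3 of the 5 above 1 CPM in every library and PDGFRA below 1 CPM throughout. The part of these markers in the results was not tested. In bulk RNA fewer cells of a type and less RNA per cell cannot be told apart.

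In H2O2-treated control cells the serine synthesis enzymes PHGDH, PSAT1 and PSPH and the one-carbon enzymes SHMT2 and ALDH1L2 were higher than in shNC. So were the tRNA synthetases AARS1, SARS1 and WARS1, the regulators ATF3 and CEBPG and the transporters SLC3A2, SLC1A4 and SLC38A2. PPP1R15A, STC2, VLDLR and CBS were higher too. ATF4 mRNA itself, TRIB3, DDIT4 and the transporters SLC7A5 and SLC7A1 were lower. Of the 34 genes 17 were higher, 5 lower and 12 not called, that is 64.7% called, beside 46.6% of all tested genes (23.9% higher and 22.6% lower) and 54.3% of those averaging 5 CPM or more. The median log2 fold change was 0.28 over the 34 and 0.00 over all tested genes. The groups did not overlap in CPM for 21 of the 34, and for 48% of tested genes. Without the 2 libraries of high mitochondrial share 19 were higher and 7 lower, where EIF4EBP1, ASNS, MTHFD2, SLC1A5 and XPOT gained a call and CBS lost its own. The share called rose from 64.7% to 76.5% of the 34 and from 60.8% to 80.4% of 97 other pathway genes described below. The share of all tested genes called without the 2 libraries is not given here. With library sizes alone, without TMM factors, 18 of the 34 were higher and 2 lower.

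Libraries labelled shYAP1_H2O2 differed from shNC_H2O2 mainly by higher levels. DDIT3, the enzyme CTH, TRIB3, both chains of the SLC7A5 and SLC3A2 transporter and the tRNA synthetases AARS1, GARS1 and SARS1 were higher, while ATF3, VLDLR, SLC1A4 and SLC38A2 were lower. In all, 14 were higher, 4 lower and 16 not called (52.9% called), beside 43% of all tested genes (22% higher and 21% lower) and 51.6% of those averaging 5 CPM or more. The median was 0.23, and 0.00 over all tested genes. Groups did not overlap for 19 of the 34 and for 45.2% of tested genes. Without the 2 libraries 21 were higher and 3 lower, where JDP2, DDIT4, PSAT1, PHGDH, MTHFD2, ALDH1L2 and WARS1 gained a call and ATF3 lost its own. The share called then rose from 52.9% to 70.6% of the 34, and from 57.7% to 75.3% of the 97 other pathway genes.

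Against untreated shNC, 22 of the 34 genes were higher in shYAP1_H2O2 and 0 lower in edgeR (3 at an unadjusted p under 0.05), beside 32.5% of all tested genes called (17.4% higher and 15.1% lower) and 41.3% of those averaging 5 CPM or more. The median was 0.43, and 0.00 over all tested genes. Groups did not overlap for 19 genes, beside 29.7% of tested genes. None of the 34 was lower, but 3 were without the 2 libraries of high mitochondrial share (DDIT4, VLDLR and SLC1A5, with 27 higher), and DESeq2 called 2 lower. Without the 2 libraries the share called rose from 64.7% to 88.2% of the 34, and from 53.6% to 75.3% of the 97 other pathway genes. The comparison shares its libraries with both others, so its calls do not stand apart from theirs.

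**Figure D1:**
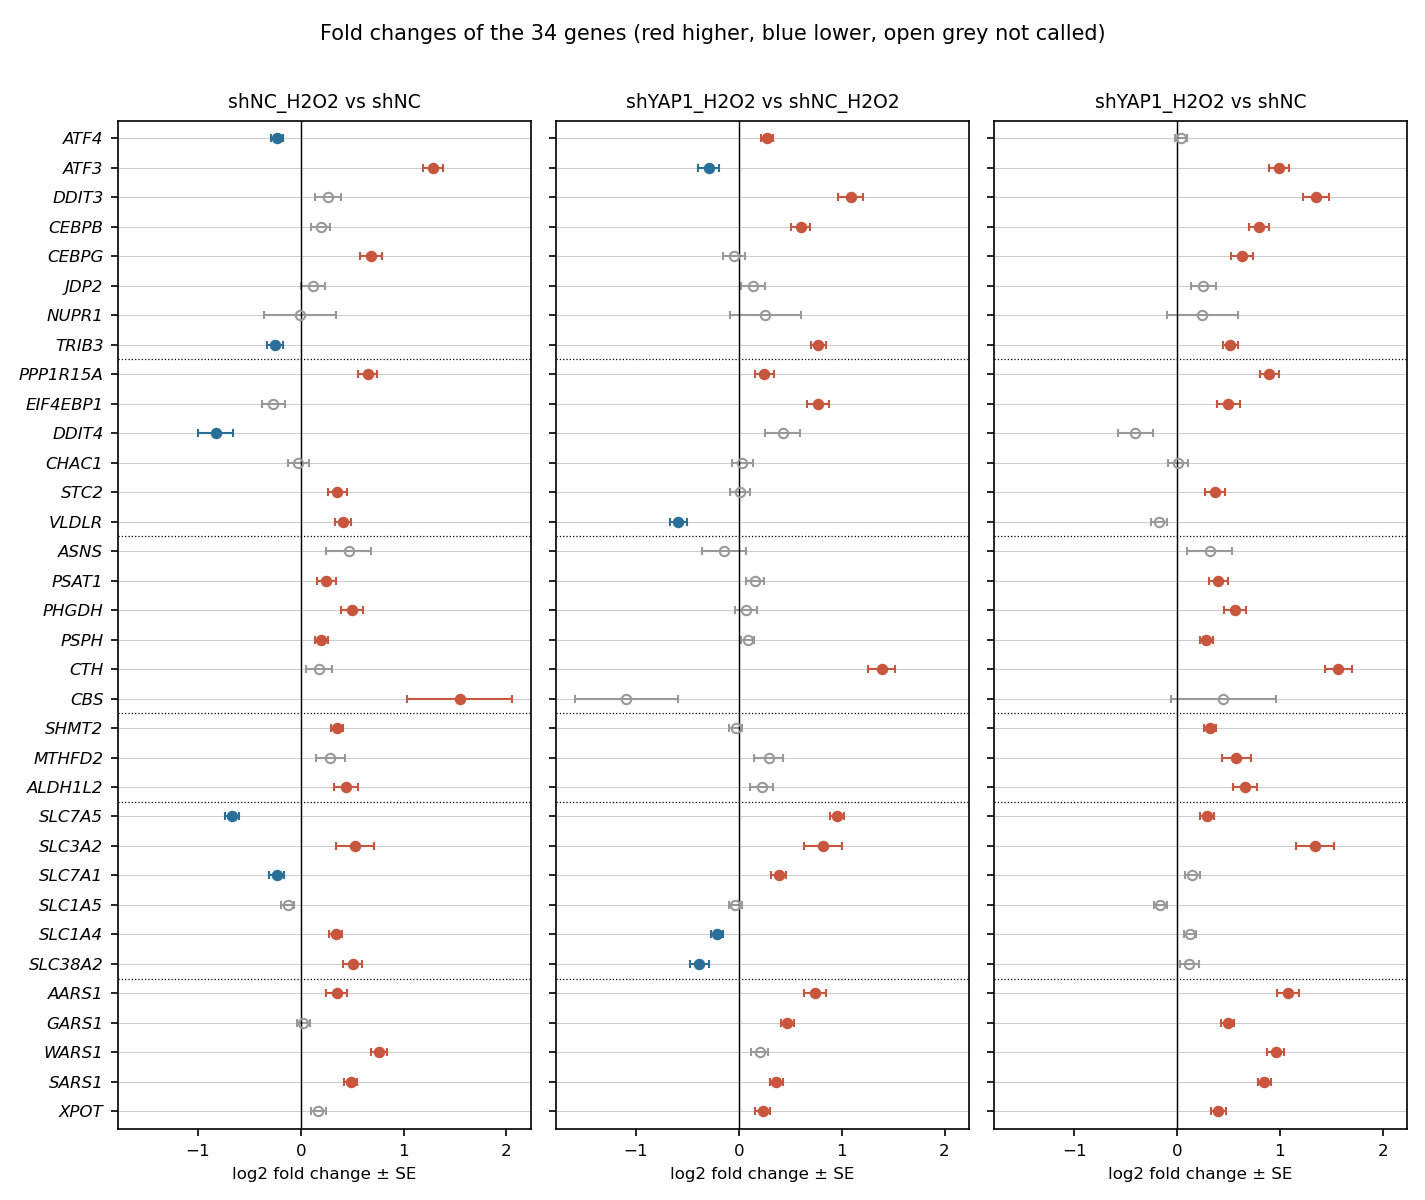
Log2 fold change ± SE (x axis) of each of the 34 genes (rows, dotted lines between roles) in the 3 comparisons, with filled red for genes called higher, filled blue for lower and open grey for not called. In the right panel 22 genes are red and 0 blue, while ATF3, SLC38A2 and VLDLR lie right of 0 in the left panel and left of 0 in the middle one.

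Read across the first pair of comparisons, AARS1, SARS1, SLC3A2 and PPP1R15A were higher in shNC_H2O2 than in shNC and higher again in shYAP1_H2O2. ATF4, TRIB3, SLC7A5 and SLC7A1 were lower in shNC_H2O2 than in shNC and higher in shYAP1_H2O2 than in shNC_H2O2. ATF3, SLC1A4, SLC38A2 and VLDLR did the opposite. Another 9 genes were higher with H2O2 and not called between the H2O2 groups, 6 were not called with H2O2 and higher in the latter comparison, DDIT4 was lower in the former and not called in the latter, and 6 were called in neither. Both comparisons use the shNC_H2O2 libraries and are not independent, so the values of each are given gene by gene. The share of all tested genes with each pattern is not given here, so these counts only describe the genes named.

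ATF4, the central activator of the response, had the highest level per length of the 34, at 159 CPM per kb of exon over all libraries. Its CPM in replicates 1 to 4 were 425, 419, 439 and 377 in shNC, 349.8, 357.5, 363 and 342 in shNC_H2O2, and 424, 442.5, 441 and 405 in shYAP1_H2O2. Every shNC_H2O2 library lay below every library of the other groups, which overlapped each other. ATF4 was 15% lower in shNC_H2O2 than in shNC (ratio 0.850, -0.23 ± 0.06, edgeR adjusted p = 0.00403) and higher in shYAP1_H2O2 than in shNC_H2O2 (0.28 ± 0.06, adjusted p = 0.00127). With the median shift of its neighbours on chromosome 22 removed these were -0.14 and 0.08, and neither passed (adjusted p = 0.0659 and 0.279). With library sizes alone the first was -0.15 and did not pass either (adjusted p = 0.103).

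ATF3, a stress-induced repressor and activator of the same bZIP class, had the largest called rise with H2O2 among genes whose groups did not overlap. It was at 80.2, 67.2, 68.2 and 59.0 CPM in shNC, 189, 148, 167 and 166 in shNC_H2O2, and 152, 131, 119 and 143.5 in shYAP1_H2O2. All treated libraries were above all untreated ones, and the H2O2 groups overlapped. The rise was 2.44-fold (1.29 ± 0.10, edgeR adjusted p = 4.4e-08), and the level in shYAP1_H2O2 was lower than in shNC_H2O2 (-0.29 ± 0.10, adjusted p = 0.0246). That second call was lost without shNC_H2O2 replicate 1 (adjusted p = 0.0949), without shYAP1_H2O2 replicate 2 (0.0656) or 3 (0.0669) and without the 2 libraries (-0.24, adjusted p = 0.0762), and with the neighbours' shift removed it was -0.64 (adjusted p = 0.000104). Against shNC, shYAP1_H2O2 remained 1.99-fold higher (0.99 ± 0.10, adjusted p = 2.2e-06).

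DDIT3 encodes CHOP, which acts under prolonged stress and can promote cell death. Its CPM were 42.2, 41.6, 46.4 and 28.8 in shNC, 47.8, 49.2, 48.8 and 45.5 in shNC_H2O2, and 96, 122, 89.2 and 99.8 in shYAP1_H2O2. The shYAP1_H2O2 libraries were all at about double the others, while the shNC and shNC_H2O2 ranges met. DDIT3 did not pass with H2O2 in the control hairpin (0.27 ± 0.12, edgeR adjusted p = 0.091) and was 2.13-fold higher in shYAP1_H2O2 than in shNC_H2O2 (1.09 ± 0.12, adjusted p = 4.6e-06). Of its exon bases 31.6% lie in MARS1 or MBD6, and strand use in counting is not given in the sources used here, so reads of these genes cannot be told apart there.

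TRIB3, a pseudokinase that restrains ATF4 and CHOP, was at 236, 244, 257 and 201 CPM in shNC, 189, 196.5, 211 and 191 in shNC_H2O2, and 332, 365, 317 and 331 in shYAP1_H2O2. The last group stood clear of the others. TRIB3 was lower in shNC_H2O2 than in shNC (-0.25 ± 0.07, edgeR adjusted p = 0.0114), with overlap through shNC replicate 4, and this was lost with the neighbours' shift removed (-0.11, adjusted p = 0.264) and with library sizes alone (-0.18, adjusted p = 0.156). It was higher in shYAP1_H2O2 than in shNC_H2O2 (0.77 ± 0.07, adjusted p = 7.5e-07) and than in shNC (0.52 ± 0.07, adjusted p = 7.4e-05).

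Among the C/EBP partners, CEBPB did not pass with H2O2, at 90.6 ± 12.6 CPM in shNC and 104 ± 8.89 in shNC_H2O2 (0.20 ± 0.09, edgeR adjusted p = 0.0986), and stood at 157 ± 8.59 CPM in shYAP1_H2O2. Its lowest shYAP1_H2O2 library, at 147 CPM, was above its highest shNC_H2O2 library, at 117 CPM (0.60 ± 0.09, adjusted p = 8.5e-05). CEBPG, the partner whose promoter stretch carries TGATGCAA, followed another course. It went from 53.0 ± 5.57 CPM in shNC to 85.2 ± 5.78 in shNC_H2O2 (0.68 ± 0.11, adjusted p = 8.3e-05) and was 82.3 ± 13.3 in shYAP1_H2O2, with no call between the H2O2 groups (-0.05 ± 0.11, adjusted p = 0.751). The genes around CEBPG on chromosome 19 shifted by a median of 0.38 with H2O2. With that shift removed the rise of CEBPG was 0.31 (adjusted p = 0.0307), and the difference between the H2O2 groups became 0.29 (adjusted p = 0.0399).

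JDP2, a repressor of the AP-1 class that binds with ATF3, was not called in any comparison, at 21.9 ± 4.38, 23.8 ± 0.766 and 26.2 ± 1.93 CPM. The neighbours of JDP2 shifted by 0.33 with H2O2, and without that shift it was higher in shYAP1_H2O2 than in shNC_H2O2 (0.45, edgeR adjusted p = 0.00743). Without the 2 libraries JDP2 was higher in shYAP1_H2O2 than in shNC_H2O2 (0.18, adjusted p = 0.00563) and than in shNC (0.155, adjusted p = 0.0324). NUPR1, a small stress-induced chromatin factor, was the lowest of the 34, at 1.18 ± 0.548, 1.17 ± 0.123 and 1.39 ± 0.461 CPM. No comparison of NUPR1 passed, and with SE of 0.34 to 0.35 its log2 differences of -0.01 to 0.26 were not resolved at this depth. Of the 8 regulators 2 were higher and 2 lower with H2O2, or 25% each, near the 23.9% and 22.6% of all tested genes (2 and 0 with library sizes alone, 4 and 0 with the neighbours' shift removed), 4 higher and 1 lower in shYAP1_H2O2 against shNC_H2O2, and 5 higher against shNC. Of all tested genes 22% were higher and 21% lower between the H2O2 groups, and 17.4% higher against shNC.

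**Figure D2:**
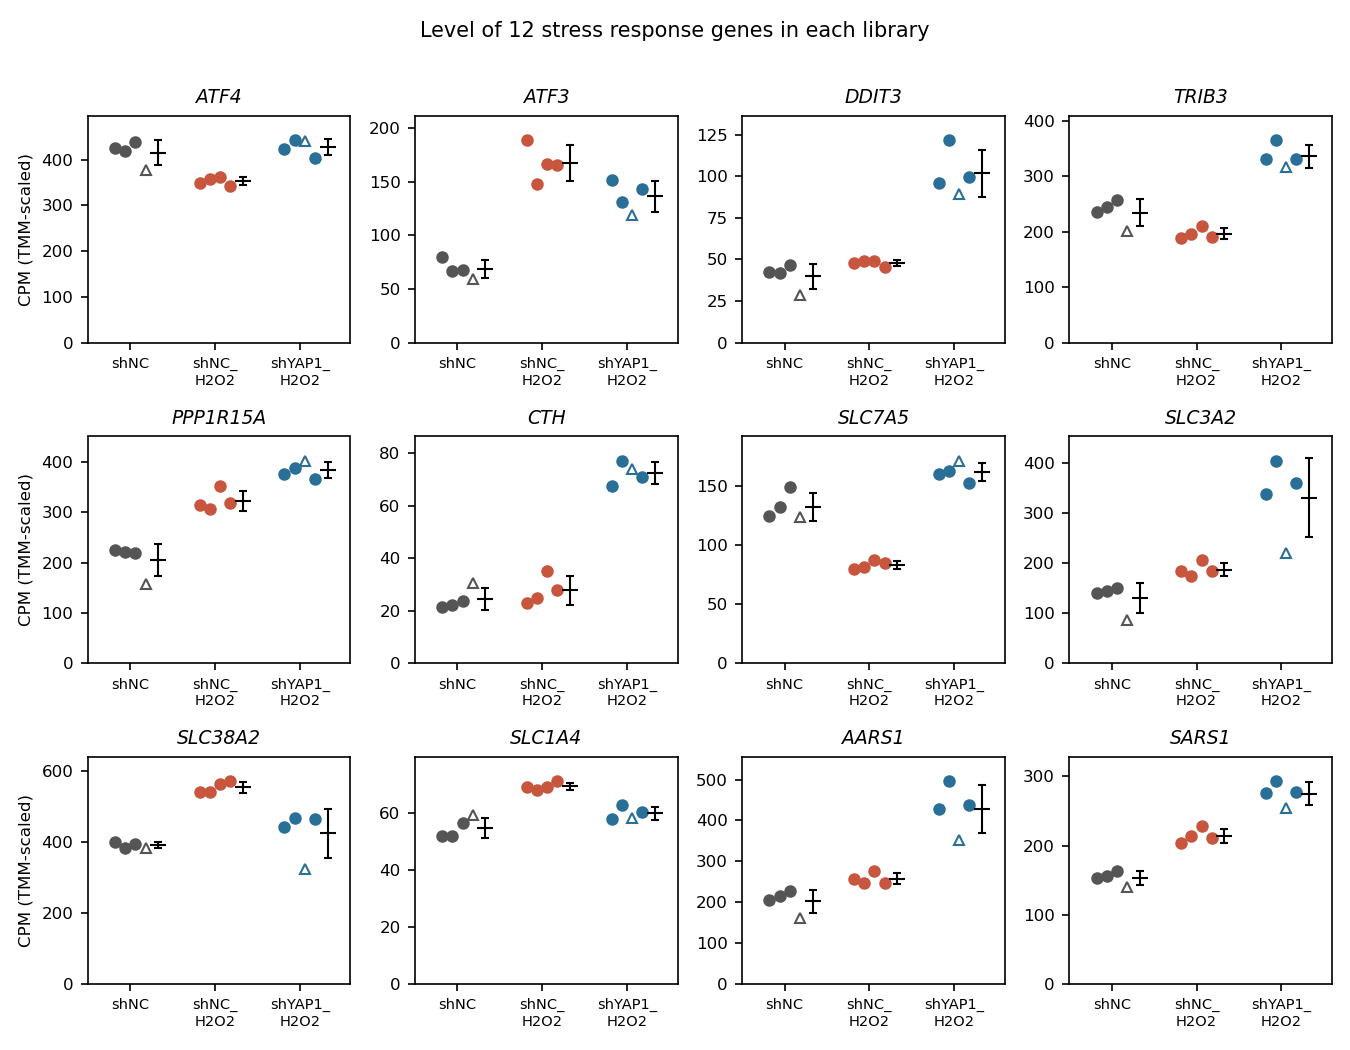
CPM of 12 genes (y axis from 0) in every library of the 3 groups (x axis), with circles for libraries, open triangles for shNC replicate 4 and shYAP1_H2O2 replicate 3, and a black bar for the mean ± SD of 4 libraries. All 4 CTH values in shYAP1_H2O2 lie between 67.5 and 77.1, above every other library, while ATF4 and SLC7A5 are lowest in shNC_H2O2.

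PPP1R15A, or GADD34, brings phosphatase to eIF2 and so ends the response. It was at 225, 221, 219 and 158 CPM in shNC, 315, 307, 352 and 319 in shNC_H2O2, and 377, 389, 402.5 and 366 in shYAP1_H2O2. The 3 groups did not overlap and rose in that order. With H2O2 it was 1.57-fold higher (0.65 ± 0.09, edgeR adjusted p = 3.3e-05), and in shYAP1_H2O2 higher again (0.25 ± 0.09, adjusted p = 0.0442). That second call rested near the threshold: it was lost without shNC replicate 3, without shNC_H2O2 replicate 1, 2 or 4 and without any single shYAP1_H2O2 library, with adjusted p from 0.0525 to 0.117, among genes averaging 5 CPM or more (0.0586) and with library sizes alone (0.18, adjusted p = 0.213). With the neighbours' shift removed it was 0.58 (adjusted p = 0.000145).

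EIF4EBP1, which holds back cap-dependent translation, was at 80.4 ± 3.93 CPM in shNC and 66.9 ± 2.84 in shNC_H2O2, without overlap and without a call (-0.27 ± 0.11, edgeR adjusted p = 0.0588), and was called lower without the 2 libraries (-0.30, adjusted p = 1.7e-07). In shYAP1_H2O2 it was 114 ± 24.9 CPM, higher than in shNC_H2O2 (0.77 ± 0.11, adjusted p = 4.1e-05), and 0.60 without the 2 libraries, with replicate 3 at 151 CPM. DDIT4, or REDD1, an inhibitor of mTORC1, had the largest fall with H2O2. It was at 205, 208, 198.5 and 128 CPM in shNC and at 103, 100, 112 and 102 in shNC_H2O2 (ratio 0.563, -0.83 ± 0.17, adjusted p = 0.00135). In shYAP1_H2O2 it was at 144, 169, 93.9 and 152.5 CPM. Replicate 3 there was below every shNC_H2O2 library and the other 3 above, and the difference did not pass in edgeR (0.43 ± 0.17, adjusted p = 0.0619). It passed without the 2 libraries (0.58, adjusted p = 2.3e-11) and in DESeq2 (adjusted p = 0.0334).

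VLDLR, a lipoprotein receptor induced through ATF4, rose with H2O2 from 80.2 ± 7.53 to 107 ± 3.23 CPM (0.41 ± 0.08, edgeR adjusted p = 0.000558) and was at 71 ± 6.94 CPM in shYAP1_H2O2 (-0.59 ± 0.08 against shNC_H2O2, adjusted p = 2.6e-05). Every shNC_H2O2 library, from 104 to 110.0 CPM, was above every other library. STC2, a secreted glycoprotein of the stress response, rose from 136 ± 13.1 to 174 ± 12.8 CPM (0.36 ± 0.09, adjusted p = 0.00573) and was at 175 ± 23.2 CPM in shYAP1_H2O2, with a difference of 0.01 ± 0.09 between the H2O2 groups (adjusted p = 0.931). CHAC1, which degrades glutathione and is a sensitive ATF4 and CHOP target, stayed at 9.05 to 10.4 CPM in shNC, 9.03 to 10.6 in shNC_H2O2 and 8.28 to 10.9 in shYAP1_H2O2. No comparison of CHAC1 passed, with log2 differences of -0.02, 0.03 and 0.01, each ± 0.10.

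Among enzymes of amino acid synthesis the 3 of the serine pathway rose with H2O2 and were not called between the H2O2 groups, where PHGDH (0.15, edgeR adjusted p = 0.000526) and PSAT1 (0.235, adjusted p = 0.000221) passed without the 2 libraries. PHGDH, the first enzyme of serine synthesis, was at 132, 139.5, 142 and 97.2 CPM in shNC, 173, 185, 185.5 and 178 in shNC_H2O2, and 201, 197, 158 and 201 in shYAP1_H2O2. Untreated libraries were all below treated ones. The rise was 1.41-fold (0.50 ± 0.11, edgeR adjusted p = 0.00114), and the H2O2 groups did not pass (0.07 ± 0.11, adjusted p = 0.638). PSAT1, the transaminase of the next step, went from 56.4 ± 5.25 to 67.0 ± 4.35 CPM (0.25 ± 0.09, adjusted p = 0.0335) and PSPH, the phosphatase of the last step, from 47.3 ± 2.53 to 54.3 ± 3.40 CPM (0.20 ± 0.06, adjusted p = 0.0184). The call of PSAT1 was lost without shNC replicate 1, 2 or 4 or shNC_H2O2 replicate 2, 3 or 4 (adjusted p from 0.0619 to 0.0958). The call of PSPH was lost without shNC replicate 1 (0.0701) or shNC_H2O2 replicate 2 (0.0723) and without a filter on low counts (0.0834). Against shNC, shYAP1_H2O2 was higher in PHGDH (0.57 ± 0.11), PSAT1 (0.40 ± 0.09) and PSPH (0.29 ± 0.06).

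CTH, cystathionine gamma-lyase, makes cysteine from cystathionine, and its difference between the H2O2 groups was the largest called among the 34. It was at 21.2, 22.1, 23.8 and 30.4 CPM in shNC, 23.0, 24.8, 35.2 and 27.8 in shNC_H2O2, and 67.5, 77.1, 74.1 and 70.8 in shYAP1_H2O2. The lowest shYAP1_H2O2 library was above the highest of all others, which overlapped. CTH was 2.62-fold higher in shYAP1_H2O2 than in shNC_H2O2 (1.39 ± 0.13, edgeR adjusted p = 4.8e-07), and H2O2 in the control hairpin gave no call (0.18 ± 0.13, adjusted p = 0.27). The log2 difference was 1.38 without the 2 libraries and 1.32 with the neighbours' shift removed.

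CBS, cystathionine beta-synthase, which makes the substrate of CTH, varied within its groups. It was at 5.2, 5.27, 20.7 and 4.09 CPM in shNC, 18.3, 31.7, 22.5 and 30.4 in shNC_H2O2, and 18.1, 12.9, 6.69 and 10.6 in shYAP1_H2O2. Only shNC replicate 3 reached the range of shNC_H2O2. The rise with H2O2 was called (1.55 ± 0.51, edgeR adjusted p = 0.0289), but was lost without shNC replicate 1, 2 or 4 or shNC_H2O2 replicate 2 or 4 (adjusted p from 0.0624 to 0.0777), without the 2 libraries (adjusted p = 0.0649), without a filter on low counts (0.0761) and with the shift of its chromosome 21 neighbours, a median of 0.61, removed (0.93, adjusted p = 0.165). CBS also has a near-identical copy, CBSL, with 88 to 444 counts per library against 172 to 1307 for CBS, and the split of reads between them is uncertain.

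ASNS, asparagine synthetase, is a standard reporter of the pathway, yet it was counted at 1.43 ± 0.284, 1.98 ± 0.202 and 1.78 ± 0.488 CPM, 37 to 101 counts per library. All 1683 coding bases of ASNS also lie in a second annotated gene (ENSG00000284707), which had 63 to 131 counts, and how reads falling on both were counted is not stated, so its level is uncertain. No comparison of ASNS passed (0.47 ± 0.22, edgeR adjusted p = 0.0905 with H2O2), and without the 2 libraries it was higher with H2O2 (0.59, adjusted p = 0.00734).

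Of the 3 one-carbon enzymes, SHMT2, which splits serine in mitochondria, rose from 174 ± 14.7 to 222 ± 3.07 CPM with H2O2 (0.35 ± 0.06, edgeR adjusted p = 0.000191) and was at 217 ± 2.84 CPM in shYAP1_H2O2. ALDH1L2, a mitochondrial formyltetrahydrofolate dehydrogenase, rose from 17.5 ± 3.66 to 23.8 ± 0.942 CPM (0.44 ± 0.11, adjusted p = 0.00514), with overlap through shNC replicate 4 at 22.8 CPM, and was at 27.8 ± 2.06 CPM in shYAP1_H2O2. MTHFD2, the mitochondrial folate enzyme, was at 126 ± 11.8, 154 ± 14.3 and 188.5 ± 43.4 CPM. Its groups shNC and shNC_H2O2 did not overlap but did not pass (0.29 ± 0.14, adjusted p = 0.115), and shYAP1_H2O2 replicate 3, at 125 CPM, lay below the other 3 libraries of its group at 199 to 219.8. Against shNC_H2O2 MTHFD2 did not pass (0.29 ± 0.14, adjusted p = 0.114), but did without the 2 libraries (0.45, adjusted p = 3.7e-05) and with the neighbours' shift removed (0.51, adjusted p = 0.0107). Of its exon bases 33.2% lie in other genes. All 3 were called higher in shYAP1_H2O2 than in shNC (0.32 to 0.66), beside 17.4% of all tested genes.

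The 6 transporters were divided, with 3 higher and 2 lower at either step (3 and 1 with H2O2 under library sizes alone, 4 and 1 between the H2O2 groups with the neighbours' shift removed). These are shares of 50% and 33.3%. Of all tested genes 23.9% and 22.6% were higher and lower with H2O2, and 22% and 21% between the H2O2 groups. SLC7A5 (LAT1), which carries large neutral amino acids, was at 124, 132, 148 and 124 CPM in shNC, 79.7, 80.9, 86.8 and 84.8 in shNC_H2O2, and 159.5, 162, 171 and 152.5 in shYAP1_H2O2. The 3 groups did not overlap, with shNC_H2O2 lowest and shYAP1_H2O2 highest. SLC7A5 was lower with H2O2 (ratio 0.629, -0.67 ± 0.07, edgeR adjusted p = 7.8e-07) and 1.94-fold higher in shYAP1_H2O2 than in shNC_H2O2 (0.96 ± 0.07, adjusted p = 2.3e-08). With the neighbours' shift removed these were -0.48 and 0.66, both called.

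SLC3A2 (4F2hc) is the heavy chain that takes LAT1 to the membrane, and it also serves other light chains. It was at 139, 145, 149.5 and 86.6 CPM in shNC, 183.5, 174, 205 and 184 in shNC_H2O2, and 337, 404, 219 and 360.0 in shYAP1_H2O2. The groups were ordered without overlap, and the 2 libraries of high mitochondrial share were the lowest of their groups by a wide gap. Unlike SLC7A5, SLC3A2 was called higher with H2O2 (0.52 ± 0.19, edgeR adjusted p = 0.0331), a call lost without shNC replicate 4 (0.0866) or shNC_H2O2 replicate 1, 3 or 4 (0.0548, 0.0749 and 0.0556) and without a filter on low counts (0.131). It was higher in shYAP1_H2O2 than in shNC_H2O2 (0.82 ± 0.19, adjusted p = 0.00285), by 0.98 without the 2 libraries, and 2.54-fold higher than in shNC (1.35 ± 0.19, adjusted p = 0.00012).

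SLC7A1, the cationic amino acid carrier, was at 164 ± 19.4 CPM in shNC and 139.6 ± 5.12 in shNC_H2O2 (-0.23 ± 0.07, edgeR adjusted p = 0.0169, 0.0568 without shNC_H2O2 replicate 4 and 0.0529 with library sizes alone), and at 182 ± 8.25 CPM in shYAP1_H2O2 (0.39 ± 0.07 against shNC_H2O2, adjusted p = 0.0006). SLC38A2 (SNAT2), a sodium-coupled carrier of small neutral amino acids, was the reverse. It was at 401, 383, 394 and 383 CPM in shNC, 539, 541, 563 and 571 in shNC_H2O2, and 441, 466, 323 and 465 in shYAP1_H2O2. Every shNC_H2O2 library was above all others, and shYAP1_H2O2 replicate 3 was below all others. The rise with H2O2 was 0.51 ± 0.09 (adjusted p = 0.000302), and shYAP1_H2O2 was lower than shNC_H2O2 by -0.39 ± 0.09 (adjusted p = 0.00299), or -0.28 without the 2 libraries (adjusted p = 3.8e-09).

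SLC1A4 (ASCT1), an alanine and serine carrier, went the same way as SLC38A2, from 54.9 ± 3.55 to 69.5 ± 1.30 CPM with H2O2 (0.34 ± 0.06, edgeR adjusted p = 0.00026) and 59.9 ± 2.26 in shYAP1_H2O2 (-0.21 ± 0.06, adjusted p = 0.0102). That second call was lost with the neighbours' shift removed (-0.15, adjusted p = 0.0635). SLC1A5 (ASCT2), the glutamine carrier, was at 205 ± 17.7, 188 ± 7.38 and 183 ± 2.80 CPM, and was not called in any comparison. It was lower with H2O2 without the 2 libraries (-0.19, adjusted p = 1.8e-05) and with the neighbours' shift removed (-0.32, adjusted p = 0.00076), and 23.8% of its exon bases lie in other genes.

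Genes of tRNA charging and export were called higher in shYAP1_H2O2 than in shNC in all 5 cases, with a median of 0.85, beside 17.4% of all tested genes. AARS1, the alanyl-tRNA synthetase, was at 204, 215, 227 and 161.5 CPM in shNC, 257, 247, 277 and 247 in shNC_H2O2, and 427, 496, 352 and 438 in shYAP1_H2O2. Its 3 groups did not overlap, and the 2 libraries of high mitochondrial share were again the lowest of theirs. AARS1 rose with H2O2 (0.35 ± 0.11, edgeR adjusted p = 0.0136) and was 1.67-fold higher in shYAP1_H2O2 than in shNC_H2O2 (0.74 ± 0.11, adjusted p = 4.4e-05).

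SARS1, the seryl-tRNA synthetase, showed the same order, at 152, 156, 163 and 139.9 CPM in shNC, 204, 213, 228 and 211 in shNC_H2O2, and 276, 293, 254 and 278 in shYAP1_H2O2. No library overlapped with another group, and both steps were called (0.49 ± 0.06, edgeR adjusted p = 1.4e-05, and 0.36 ± 0.06, adjusted p = 0.000276). WARS1, the tryptophanyl-tRNA synthetase, which interferon also induces, rose mainly with H2O2, from 121.5 ± 13.2 to 206 ± 7.98 CPM (0.76 ± 0.08, adjusted p = 1.2e-06). In shYAP1_H2O2 WARS1 was 236 ± 20.9 CPM, above shNC_H2O2 in every library but not called (0.20 ± 0.08, adjusted p = 0.0525).

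GARS1, the glycyl-tRNA synthetase, was at 221 ± 16.6 CPM in shNC and 225 ± 11.1 in shNC_H2O2, with no call (0.03 ± 0.06, edgeR adjusted p = 0.768), and at 312 ± 13.4 CPM in shYAP1_H2O2 (0.47 ± 0.06, adjusted p = 2.4e-05). The genes around GARS1 on chromosome 7 shifted by a median of 0.20 with H2O2, and with that removed it was lower with H2O2 (-0.18, adjusted p = 0.0359). XPOT, which exports tRNA from the nucleus, was at 346 ± 20.1, 389 ± 17.6 and 457 ± 45.7 CPM. XPOT passed between the H2O2 groups (0.23 ± 0.07, adjusted p = 0.0172), with overlap through shYAP1_H2O2 replicate 3 at 397 CPM, and lost the call without shYAP1_H2O2 replicate 2 (adjusted p = 0.0655) or shNC_H2O2 replicate 1 (0.0559) and with library sizes alone (0.121). Its difference with H2O2 did not pass (0.17 ± 0.07, adjusted p = 0.0663) although the groups did not overlap.

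Levels were compared between genes only per kb of exon in GENCODE release 29, as group means. Exons of all annotated transcripts of a gene were merged, so this length can exceed that of the expressed mRNA. ATF4 had the highest mean in each group, and the order below it differed between groups. In shNC it was followed by DDIT4 at 89.9 CPM per kb, EIF4EBP1 at 75.0 and TRIB3 at 68.3, in shNC_H2O2 by PPP1R15A at 104.5, SLC38A2 at 83.9 and EIF4EBP1 at 62.3, and in shYAP1_H2O2 by PPP1R15A at 124, EIF4EBP1 at 106 and TRIB3 at 97.9. SLC7A5 and its partner SLC3A2 stood at 27.8 and 25.1 CPM per kb in shNC, 17.5 and 36.1 in shNC_H2O2, and 34 and 63.8 in shYAP1_H2O2. Among regulators DDIT3 was at 30.4 CPM per kb in shNC, 36.6 in shNC_H2O2 and 77.8 in shYAP1_H2O2, beside 17.0, 41.4 and 33.7 for ATF3. The lowest in every group were NUPR1, at 0.206 to 0.245 CPM per kb, and ASNS, at 0.32 to 0.445. The place of ASNS is uncertain, since its coding bases also lie in a second annotated gene.

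Neighbouring genes on a chromosome differed together between these groups, so each fold change was also computed after the median of the nearest 25 tested genes on either side was taken from it. The median of the 34 genes was then 0.30 with H2O2 (18 higher, 5 lower), 0.25 in shYAP1_H2O2 against shNC_H2O2 (18 higher, 3 lower) and 0.42 against shNC (23 higher, 0 lower in edgeR). The shares of all tested genes called after this removal are not given here, so these counts have no background beside them. Of the 22 genes called with H2O2, ATF4, TRIB3 and CBS lost their call, and DDIT3, CEBPB, SLC1A5 and GARS1 gained one. Of the 18 called between the H2O2 groups, ATF4 and SLC1A4 lost theirs, and CEBPG, JDP2, MTHFD2, SLC1A5 and WARS1 gained one. All 22 calls against shNC remained, where neighbours of the 34 genes had shifted by -0.11 to 0.10. In shNC_H2O2 against shNC the neighbours had shifted more, by -0.36 (ATF3) to 0.61 (CBS). The shNC_H2O2 libraries enter the comparison with H2O2 and that between the H2O2 groups alike. Why neighbouring genes shifted was not tested.

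**Figure D3:**
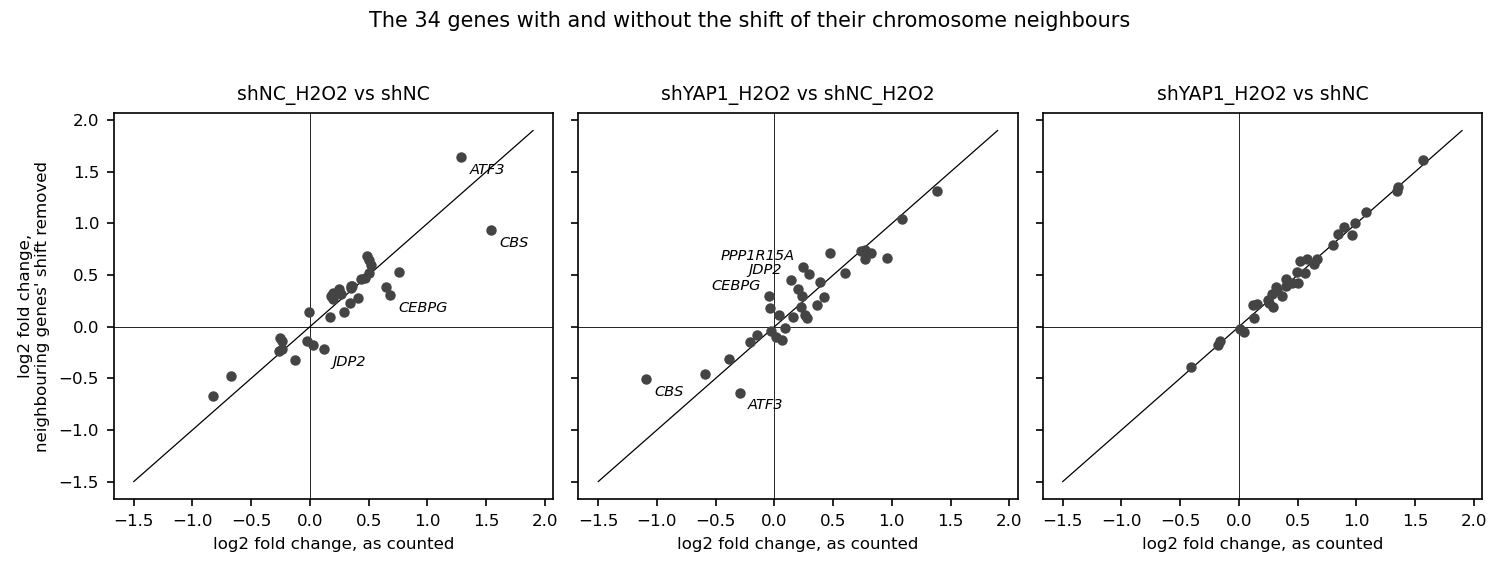
Log2 fold change of the 34 genes as counted (x axis) and with the median shift of neighbouring genes removed (y axis) in the 3 comparisons, with a line of equality and names for genes that moved by over 0.3. In the right panel all points lie near the line, while ATF3, at 1.29 as counted, reads 1.65 in the left panel, and CBS, at 1.55, reads 0.93.

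Beside the 34, 97 other tested genes of the pathway were counted in 7 lists. With H2O2 31 were higher (32%) and 28 lower (28.9%), beside 23.9% and 22.6% of all tested genes, with a median of 0.01. Between the H2O2 groups 48 were higher (49.5%) and 8 lower (8.25%), beside 22% and 21%, with a median of 0.18. Against shNC 41 were higher (42.3%) and 11 lower (11.3%), beside 17.4% and 15.1%, with a median of 0.21. Without the 2 libraries the 3 pairs of counts were 43 and 35, 60 and 13, and 58 and 15. The counts of single lists that follow are to be read against the same shares of all tested genes. Upstream of ATF4, the 8 eIF2 kinases and their adaptors were mostly lower with H2O2, 5 of 8, with 1 higher (2 with library sizes alone). EIF2AK3 (PERK), the kinase of the endoplasmic reticulum, fell by 0.45 on the log2 scale (SE 0.07, edgeR adjusted p = 7.4e-05) and OMA1, the mitochondrial protease that signals through DELE1, by 0.76 (SE 0.07, adjusted p = 1.7e-07), while EIF2AK4 (GCN2), the sensor of uncharged tRNA, rose by 0.46 ± 0.06. In shYAP1_H2O2 against shNC_H2O2, OMA1 (0.71 ± 0.07) and DELE1 (0.35 ± 0.05) were higher and EIF2AK4 lower (-0.36 ± 0.06). EIF2AK3 and GCN1 were lower than in shNC (-0.34 and -0.28).

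Of 10 genes for eIF2, eIF2B and the phosphatase side, 2 were higher and 5 lower with H2O2 (1 and 3 with the neighbours' shift removed), and 7 higher and 1 lower in shYAP1_H2O2 against shNC_H2O2. PPP1R15B, the constitutive partner of the eIF2 phosphatase, fell with H2O2 (-0.63 ± 0.06) and was higher in shYAP1_H2O2 (0.83 ± 0.06), opposite in the first step to PPP1R15A. NCK1 gave -0.70 and 0.79, but with its neighbours' shift removed neither passed (edgeR adjusted p = 0.392 and 0.129). EIF2S1, the subunit that is phosphorylated, rose by 0.30 ± 0.07 with H2O2, and by 0.04 with the shift removed (adjusted p = 0.64).

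Of the 16 other cytosolic aminoacyl-tRNA synthetases 9 were higher and 0 lower than in shNC_H2O2 in edgeR, and 8 higher and 0 lower than in shNC, with 0 lower also at an unadjusted p under 0.05 and in DESeq2. Without the 2 libraries, however, 12 were higher and 2 lower than in shNC_H2O2, and 11 higher and 1 lower than in shNC. Against shNC_H2O2 the counts were 7 and 1 with library sizes alone and 10 and 1 with the neighbours' shift removed. In shNC_H2O2 against shNC 4 were higher and 2 lower, shares of 25% and 12.5%, but 6 and 0 with library sizes alone, 4 and 4 in DESeq2 and with the shift removed, and 6 and 6 without the 2 libraries. YARS1 rose at both steps (0.29 ± 0.08 and 0.48 ± 0.08), CARS1 rose with H2O2 (0.47 ± 0.10), and VARS1 fell with H2O2 (-0.28 ± 0.07). EPRS1 fell with H2O2 as counted (-0.22 ± 0.07), which did not pass with library sizes alone (edgeR adjusted p = 0.22) and stood at 0.06 with the shift removed (adjusted p = 0.51). The fall of VARS1 did not pass with library sizes alone either (adjusted p = 0.0613).

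The 16 other amino acid transporters were divided, with 4 higher and 4 lower with H2O2, and 5 higher and 2 lower in shYAP1_H2O2 against shNC_H2O2. SLC7A2 and SLC7A7, carriers of cationic amino acids, fell with H2O2 (-2.10 ± 0.08 and -1.34 ± 0.08) and were higher in shYAP1_H2O2 (1.72 ± 0.08 and 1.65 ± 0.08), the same direction as SLC7A1 and SLC7A5. The glycine carrier SLC6A9 rose with H2O2 (1.37 ± 0.12) and was 1.52 ± 0.12 above shNC in shYAP1_H2O2. SLC1A1, a glutamate carrier of the tubule, was lower in shYAP1_H2O2 than in shNC_H2O2 (-1.06 ± 0.11) and than in shNC (-0.90 ± 0.11). Of 20 other enzymes of serine, one-carbon, proline and glutamate metabolism 6 were higher and 6 lower with H2O2, and 6 higher and 3 lower between the H2O2 groups. Among them GOT1, the cytosolic aspartate transaminase, was higher in shYAP1_H2O2 (0.34 ± 0.06 against shNC_H2O2 and 0.79 ± 0.06 against shNC).

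Among 15 other stress-induced targets of ATF4 or CHOP 6 were higher and 3 lower with H2O2 (7 and 1 with library sizes alone, 9 and 1 with the shift removed), and 9 were higher and 1 lower in shYAP1_H2O2 against each of the other groups (11 and 2 against shNC_H2O2 without the 2 libraries). The death gene BBC3 (PUMA), also a p53 target, rose with H2O2 (1.32 ± 0.16), and HERPUD1, which clears misfolded protein, was 0.74 ± 0.07 above shNC_H2O2 and 1.22 ± 0.07 above shNC. ERO1A, an oxidase of disulfide formation, was lower with H2O2 (-0.75 ± 0.08) and in shYAP1_H2O2 against shNC (-0.61 ± 0.08). Of 12 genes of the ATF6 and XBP1 branches of the unfolded protein response 8 were higher and 3 lower with H2O2 (8 and 1 with library sizes alone), 9 higher and 0 lower between the H2O2 groups, and 11 higher and 0 lower against shNC in edgeR. The zeros held at an unadjusted p under 0.05 and in DESeq2, and the medians were 0.36, 0.60 and 0.88. HSPA5 (BiP), the main chaperone of the endoplasmic reticulum, rose at both steps (0.67 ± 0.12 and 0.93 ± 0.12). With the shift removed 9 of the 12 were higher and 2 lower with H2O2. PDIA4 fell with H2O2 as counted (-0.34 ± 0.07, edgeR adjusted p = 0.00116) and with the shift removed (-0.50, adjusted p = 4.6e-05). DNAJB11 fell with H2O2 as counted (-0.26 ± 0.08) but was higher with the shift removed (0.31, edgeR adjusted p = 0.00717). As counted its fall did not pass with library sizes alone (adjusted p = 0.191) or without shNC replicate 3 (0.0555) or shNC_H2O2 replicate 3 (0.0792) or 4 (0.0504).

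**Figure D4:**
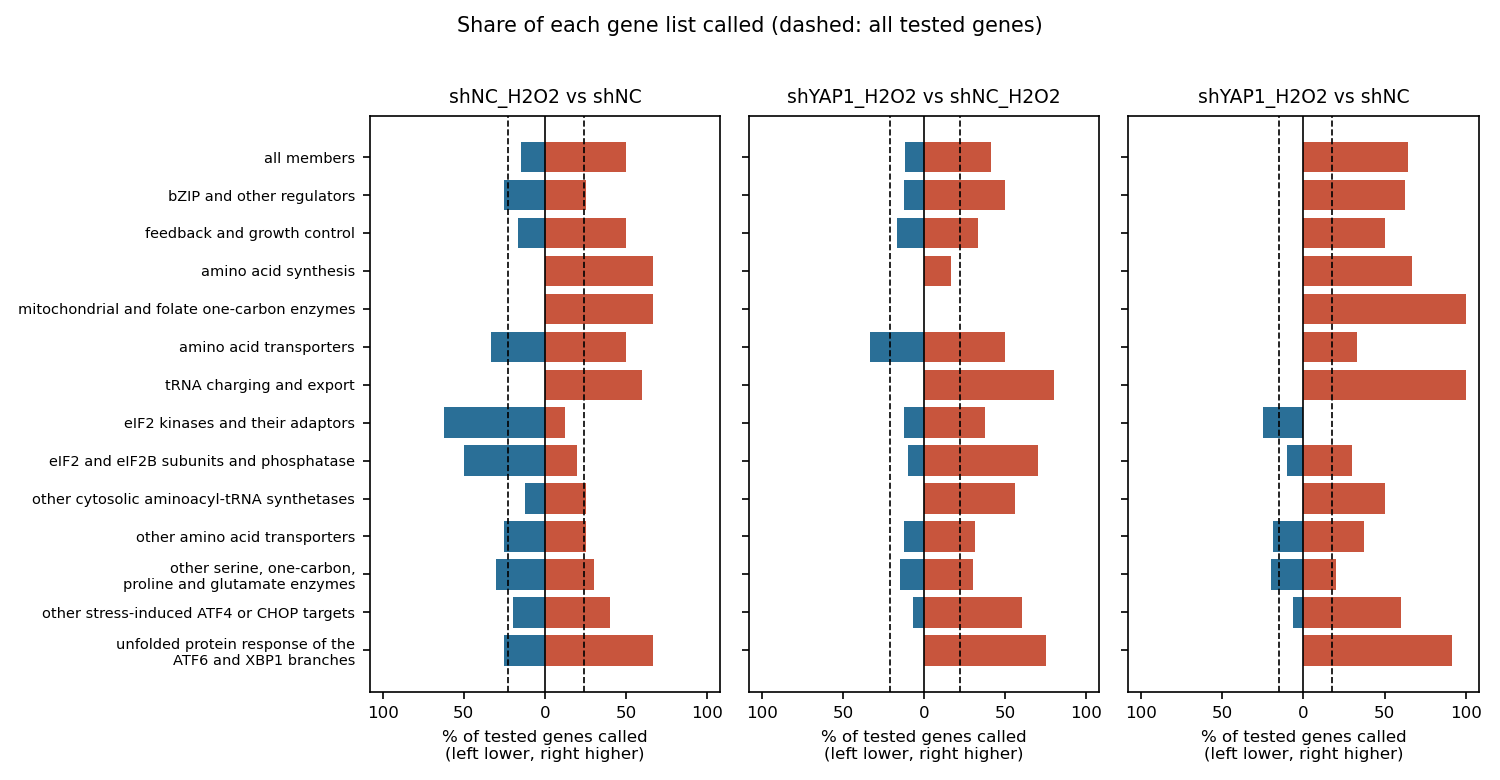
Percent of the tested genes of each list called lower (left of 0, blue) and higher (right of 0, red) in the 3 comparisons, with dashed lines at the percent of all tested genes called in each direction. In the right panel tRNA charging and one-carbon enzymes reach 100% higher, and 91.7% of the genes of the ATF6 and XBP1 branches are higher, beside 17.4% of all tested genes.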

How the data were processed

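The authors deposited 1 table of raw counts per library, as whole numbers per gene. Per the submitters' processing notes the tools were HISAT2, Subread, featureCounts and DESeq2 on GRCh38. Their versions, the annotation and the strand setting were not given in the sources used here. Of 40649 Ensembl identifiers, symbols came from a table of gene names for 40555 and from GENCODE release 29 for 85. Counts were tested with edgeR 4.0.16 (R 4.3.3): filterByExpr, TMM, robust quasi-likelihood fit over all 12 libraries with 1 mean per group, Benjamini-Hochberg adjustment over 19268 genes, threshold 0.05. On simulated data for shNC_H2O2 against shNC over these genes, 60 of 100 genes changed by 0.5 (log2) and 99 of 100 changed by 1 were recovered. Only these genes differed in the simulation, and no library of high mitochondrial share was simulated. Recovery in the real data can therefore differ. DESeq2 1.42.0, other scalings, filters, left-out libraries, a replicate block and removal of the neighbours' shift were alternatives.

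The genes and lists, and the tests, were chosen with earlier results of these data known. Text names all 34 genes, YAP1 and, per list and comparison, up to 2 called genes with the largest rise and 2 with the largest fall at a mean of at least 5 CPM. The extraction protocol speaks of kidney tissue, whereas the labels name HK-2, which was used. Replicate tables differed beyond sampling noise in every pair, so each library counted as 1 replicate. Chi-square per degree of freedom was 95.8 to 159 in pairs with shNC replicate 4 or shYAP1_H2O2 replicate 3. It was 2.85 to 6.39 in all other pairs. Floors cover counting error only.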

Additional observations from a re-analysis of the deposited data

Results flagged for a closer look

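In 216 groups of 4 libraries checked, 30 held a library whose gap to its nearest neighbour was, relative to the group's range, above Dixon's 95% critical value, where chance flags about 1 in 20. Of these, 11 concerned the 34 genes. Low values in shNC replicate 4 were 15.4 CPM for JDP2 (others 23.5 to 24.5), 158 for PPP1R15A (219 to 225), 128 for DDIT4 (199 to 208) and 86.6 for SLC3A2 (139 to 149). In shYAP1_H2O2 replicate 3 PHGDH was low at 158 CPM (197 to 201), while EIF4EBP1 was high at 151 (99.5 to 105) and ALDH1L2 at 30.8 (26.3 to 27.0). These are the libraries of high mitochondrial share, whose part in the values was not tested. Apart from these 2 libraries, CBS was high at 20.7 CPM in shNC replicate 3 (4.09 to 5.27), JDP2 at 24.9 in shNC_H2O2 replicate 3 (23.3 to 23.5), GARS1 at 332 in shYAP1_H2O2 replicate 2 (303 to 308) and WARS1 at 218 in shNC_H2O2 replicate 2 (201 to 202).

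Among the other pathway genes, shNC replicate 4 was low in VARS1 (129 CPM), SHMT1 (91.3), BBC3 (5.73), SQSTM1 (199) and PDIA4 (379) and high in ERO1A (340). In shYAP1_H2O2 replicate 3 GCN1 (260 CPM), NCK1 (34.8), PPP1R15B (222), SQSTM1 (310) and DNAJB11 (81.2) were low, and VARS1 (183), ASS1 (48.8) and ATF5 (16.4) high. In the remaining libraries NCK1 was low at 24.8 CPM and SLC7A6 at 35.2 in shNC_H2O2 replicate 2, SLC7A7 low at 9.5 in shNC_H2O2 replicate 1, VARS1 high at 129 in shNC_H2O2 replicate 3, and PDIA4 high at 564 in shYAP1_H2O2 replicate 2.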

How the results depend on the processing

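Across 21 alternatives, 12 of them leaving out 1 library, the counts of the 34 genes called higher stayed within 1.5 times the reported ones in all 3 comparisons, and their median log2 fold changes stayed positive. The count lower with H2O2 fell from 5 to 2 with library sizes alone. The count lower in shYAP1_H2O2 against shNC, 0 as reported, was 1 among genes averaging 5 CPM or more, 3 without the 2 libraries of high mitochondrial share, 2 with DESeq2 and 0 to 3 when 1 library was left out, with 3 reached without shNC replicate 4. Removing the neighbours' shift turned the sign of GARS1 (-0.18), EPRS1 (0.061) and DNAJB11 (0.31) with H2O2, and of CEBPG (0.29), SLC1A5 (0.18) and EIF2S1 (0.19) between the H2O2 groups, by construction of that alternative. Of 4530 values of single genes compared, 71 others changed sign while missing the threshold both times, 42 of them among the 34 genes, and none of these was above 0.25 in size.

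Replicate numbers did not pair the samples, since deviations of same-numbered libraries correlated at -0.22 to 0.10. With a replicate block 16 of the 34 genes were higher and 6 lower with H2O2, 14 and 4 between the H2O2 groups and 22 and 0 against shNC, in edgeR. PSAT1 lost its call with H2O2 under the block (adjusted p = 0.0676), and no other call of the 34 genes did. Genes whose exons lie in others, low counts (NUPR1, ASNS) and 4 libraries per group limit the precision.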
